A study of Mus musculus with 6 samples.

Results

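Protein-coding genes of bone marrow derived macrophages (BMDMs) whose counted 3′ UTR region is a single stretch of at most 500 bases were selected on the measured mean counts and compared between Control and M-Δx3,4 cultures. For each gene the protein-coding transcript with 1 counted segment and the highest mean raw count was kept, with a mean of at least 20 raw counts over the 6 libraries. This left 956 genes of the 5818 single-segment genes that passed the same mean, among 55254 gene names in the table. The BMDMs came from C57BL/6J mice, were grown for 10 days in L929-conditioned medium and received LPS at 100 ng/ml for 4 hours. Control cells carried hnRNPD fl/fl and M-Δx3,4 cells LysCre+ hnRNPD fl/fl, so both groups had the floxed exons 3 and 4 and the same endotoxin treatment, and Cre was driven by the myeloid LysM locus. There were 3 libraries per group, made from RNA 3′ ends, with 5852374 to 9008878 counts each. The labels do not say whether the 3 libraries of a group came from separate animals, so the p-values measure the spread between these libraries only. No unstimulated library was analysed here, so levels are those of LPS-treated cells.

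Hnrnpd encodes AUF1, a protein that binds AU-rich stretches in the 3′ UTR of many mRNAs and is known for its part in mRNA decay. A short 3′ UTR offers little room for such elements, and genes of housekeeping machines such as the ribosome are known for short UTRs. In 3′-end sequencing each read comes from near the poly(A) tail, so a gene with a short UTR is read from a narrow window at its end. The Hnrnpd transcript of the p37 isoform (ENSMUST00000072750), which is no member, gave Control values of 177.8, 104.2 and 69.6 normalized counts and M-Δx3,4 values of 52.8, 12.6 and 16.0. The most counted Hnrnpd transcript (ENSMUST00000172361) overlapped between the groups, with 104.4 to 335.9 in Control and 124.3 to 160.5 in M-Δx3,4 cells. Summed over the 8 macrophage markers, the libraries held 6452 to 7034 normalized counts in Control and 5413 to 7072 in M-Δx3,4 cells. Lyz2 alone among them did not overlap, with 1992, 1788 and 2201 in Control and 1342, 881.7 and 968.2 in M-Δx3,4 cells. The 5 B cell markers used summed to 299.9 to 352.7 in Control and 139.8 to 164.3 in M-Δx3,4 cells, with Igkc the largest in each library. Ighm had 48.8, 62.3 and 76.6 in Control and 44.0, 43.7 and 28.3 in M-Δx3,4 cells. Cd79a and Ms4a1 had at most 4 raw counts in any library, and Cd79b had 20.9, 26.6 and 18.6 normalized counts in Control and 33.3, 37.9 and 16.0 in M-Δx3,4 cells, with 2 of those above all Control libraries.

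The counted regions were placed on the transcript models of GENCODE M21 (GRCm38, the same build as mm10). In 566 of the 956 genes the region began with an annotated 3′ UTR, with a median UTR of 150.5 bases, and in 526 of these it ran on for 249 bases past the annotated end. Another 40, all genes of 1 exon such as Junb, Ifnb1 and Ch25h, stopped at the annotated end. In 387 members the model had no annotated 3′ UTR, and 3 transcripts were not in that annotation. The region was then usually only the 249 bases after the end of a coding model without a UTR (116 genes, among them Apoe, Fth1 and Cd68) or of a noncoding model (270 genes, among them H2-Aa, Rps23 and Rpl4). Regions of 172 of these 387 lay over a region above 500 bases of the same gene. A short counted region is therefore not always a short 3′ UTR. The shortest regions belonged to Gm2000 (35 bases), Bcl2a1c (36) and Gm6525 (38), and the shortest annotated UTR before the flank, of 1 base, was shared by Polr1c, Flna, Ap2s1 and Gm20547.

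Cleavage before the poly(A) tail is directed by a hexamer that often stands shortly before the end of the RNA. The last 30 bases of 5 members named here, read from GENCODE M21 transcripts of GRCm38, are shown with AATAAA (or ATTAAA, in Ccl5) in capitals, 5′ to 3′ on the RNA strand.
Rplp1 (chr9:61913284-61913313, minus strand): ttaagttggctAATAAAgagctgaacctgt
Isg15 (chr4:156199424-156199453, minus strand): atgatgcAATAAAaagctctgcctcttgtt
Apoc2 (chr7:19671579-19671608, minus strand): gaaagAATAAAtgagtccaggttcactggc
Hspa8 (chr9:40805171-40805200, plus strand): ggaatAATAAAactatttaaattggcacca
Ccl5 (chr11:83525778-83525807, minus strand): tttcATTAAAatttcagatgcaaggacaaa
Searched on the RNA strand over the last 50 annotated bases, AATAAA was present in 364 of the 566 members with a UTR (64.3%). In single-segment genes with regions of over 500 to 1000, over 1000 to 2000 and over 2000 bases the share was 64.3%, 64.1% and 67.8%. ATTAAA without AATAAA was found in 12.7% of the members, against 15.6%, 16.3% and 15.3%.

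The pentamer ATTTA, the core of AU-rich elements, was present at least once in the annotated UTR of 122 of these 566 members (21.6%). In the longer classes the share was 47.9%, 77.4% and 94.9%, while the number per 1000 bases of UTR was 1.94 in the members and 1.63, 1.67 and 1.77 in the longer classes. The members with the most copies were Ccl12 and Gdf15 with 5 each and Ifnb1, Ppp1r15a and Trmt1l with 4 each. The stretches of 30 bases richest in ATTTA in 4 of them, overlapping copies included, are shown with the pentamers in capitals, because these are the members whose short UTR most resembles the element that AUF1 is known to bind.
Ppp1r15a (chr7:45522957-45522986, minus strand): gtagtttcctattATTTATTTATTTATTTA
Ccl12 (chr11:82103325-82103354, plus strand): ATTTAaacaaacttgcttaaataatATTTA
Gdf15 (chr8:70629482-70629511, minus strand): cttcaaggatgctATTTAtatttgtATTTA
Ifnb1 (chr4:88522086-88522115, minus strand): aaaacagagtttttattaATTTAtaATTTA
Ccl12, a chemokine that attracts monocytes, had 122.0, 65.4 and 119.5 normalized counts in Control and 87.1, 96.1 and 131.4 in M-Δx3,4 cells. Gdf15, a secreted stress-response cytokine, had 13.95, 50.1 and 139.2 against 63.6, 33.0 and 46.6. Ifnb1, the LPS-induced type I interferon, had 40.7, 21.5 and 34.8 against 33.3, 38.8 and 44.3. For Ppp1r15a, whose product directs a phosphatase to eIF2α, the values were 104.6, 171.6 and 174.0 against 217.2, 141.8 and 136.0. In all 4 the groups overlapped. Of the 122 members with ATTTA, 1 (Abhd16a) met the threshold given below, and it was lower in M-Δx3,4 cells. Of the 444 without ATTTA 12 met it, all lower, but 8 of these 12 had more than 50% of their counts in Control replicate 3. The shares of 0.820% and 2.70% stand beside 2.05% of all transcripts tested, and nothing about ATTTA is read from them. The median log2 fold change of M-Δx3,4 against Control was -0.10 with and -0.09 without the pentamer.

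The most counted members were Rplp1 (ribosomal stalk), Bcl2a1b (an anti-apoptotic BCL2 relative), Isg15 (the interferon-induced ubiquitin-like modifier), Apoe, Cd52, AC124742.1, Chchd2, Rps23, Fth1 and Tuba1b. Rplp1 ranged widely in Control, with 4397, 23130 and 19120 normalized counts, against 16380, 17210 and 8738 in M-Δx3,4 cells. Bcl2a1b had 22610, 7410 and 5389 in Control and 18490, 9025 and 18750 in M-Δx3,4 cells. Its near-identical paralogs Bcl2a1d and Bcl2a1c followed the same order of Control libraries, with 7253, 2596 and 2076 for Bcl2a1d, and reads of the copies may have been split between them. Isg15 had 11810, 14700 and 7493 in Control and 8565, 17920 and 16300 in M-Δx3,4 cells. Fth1, the ferritin heavy chain, differed little between libraries, from 6730 to 8648. In 9 of the 10 the groups overlapped, and Apoe was the exception. Together the members took 17.4%, 22.6% and 22.8% of the gene-level counts of the Control libraries and 20.8%, 21.5% and 17.9% of the M-Δx3,4 libraries. The means were 20.9% ± 3.05 and 20.05% ± 1.93 (SD, n = 3), and the groups overlapped. The members were selected on these same counts, so no p-value is given for this share.

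The members were noisier among the Control than among the M-Δx3,4 libraries. The median SD of log2(normalized count + 1) was 0.522 in Control and 0.338 in M-Δx3,4 cells, and the Control SD was the larger in 701 of 956 members (73.3%). This was not particular to short regions. In single-segment genes with longer regions the medians were 0.505 and 0.332, and the Control SD was the larger in 72.4%. Control replicate 3 was the library farthest from the median of the 6 in 378 members (39.5%) and Control replicate 1 in 216 (22.6%), against 87 to 95 for each of the other 4. Across members with a mean above 50 normalized counts, Pearson's r of log2 values between Control replicates 1 and 3 was 0.823, the lowest of the 15 pairs, and that between Control replicate 1 and M-Δx3,4 replicate 3 was 0.971. These points are genes of shared libraries and not independent.

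Single genes show what this spread looks like. Hspa8, the constitutive heat shock chaperone, had 304.5 normalized counts in Control replicate 1 and 2851 to 4550 in the other 5 libraries. Rpl4, a protein of the large ribosomal subunit, had 4121 and 3582 in Control replicates 1 and 2 and 627.6 in Control replicate 3, against 1394 to 2666 in M-Δx3,4 cells. Ms4a4a, a membrane protein of macrophages, had 208.0, 46.0 and 9.28 in Control, and Lrpprc, a mitochondrial RNA-binding protein, 434.7, 260.5 and 47.6. These were among the widest members at a mean of at least 100, with Proc at 352.2, 86.8 and 37.1 in Control. At the other end, Rps21 held 1561 to 1924, Actr10 105.6 to 124.6, Mrpl20 295.7 to 458.3 and Gm9844 386.7 to 612.5 over the 6 libraries.

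**Figure D1:**
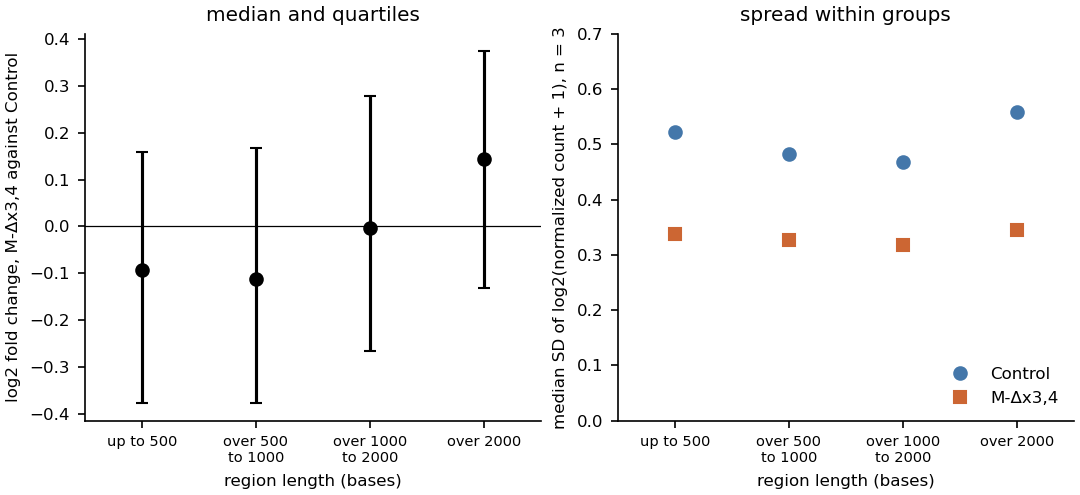
Left, the median log2 fold change of M-Δx3,4 against Control (points) with the lower and upper quartile (bars) for single-segment genes by region length in bases. Right, the median over genes of the SD of log2(normalized count + 1) within each group (n = 3 libraries). The median was -0.09 up to 500 bases, -0.11 over 500 and up to 1000, 0.00 over 1000 and up to 2000 and 0.14 over 2000, and the Control SD was the higher in every length class.

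The comparison asks which short-region genes differed between Control and M-Δx3,4 macrophages stimulated with LPS. Only the M-Δx3,4 cells are given as Cre-positive, so Cre at the LysM locus and the deletion in Hnrnpd cannot be told apart. H2-Aa, Apoc2 (with Gm44805, which has the same counts), Apoe, Wdr34 and Polr2i had all 3 M-Δx3,4 values below all 3 Control values. Each had a fitted log2 fold change below -1, though the Control mean of Polr2i rested on 1 library. Taf9 and Ccdc40 had all 3 values above and a fitted value over 1. Wdr34 and Polr2i passed the minimum mean only through their Control libraries and Ccdc40 only through its M-Δx3,4 libraries. The study put its cutoffs of 0.05 and 1 on a p combined over several algorithms and on the log2 fold change. Here the same cutoffs were put on the unadjusted p and the log2 fold change of edgeR's quasi-likelihood test, and by this threshold 22 members were lower (2.30%) and 2 higher (0.209%). Among all 32475 transcripts tested 2.05% were lower and 1.25% higher, and among the 4862 single-segment genes with longer regions 0.864% and 0.432%. The lower share was thus close to the background of all transcripts. Without a minimum fold change, 48 members had an unadjusted p under 0.05 (39 lower, 9 higher), 5.02% against 4.13% of all transcripts tested. In the main edgeR fit no transcript of the table passed Benjamini-Hochberg adjustment. The smallest adjusted p was 0.824 overall and 0.828 among the members (H2-Aa, edgeR's quasi-likelihood test). This holds for that fit only. Counts of members past the threshold in other fits are described at the end, without adjusted p-values. Some unadjusted p-values there were orders of magnitude smaller than in the main fit. That was so for H2-Aa with DESeq2's Wald test. With no filter it was so for F2, Fabp1 and the 8 Mup genes, whose counts lay almost wholly in 1 library. For those fits it is therefore not claimed that no transcript passes adjustment. The median log2 fold change was -0.09 in the members (581 of 956 below 0) and -0.03 in all transcripts tested. With the 8 members that had no M-Δx3,4 library above 3 counts set at their bound against that floor, the members' median was also -0.09. Libraries of the groups did not overlap in 46 members that were lower (4.81%, background 4.78%) and 33 that were higher (3.45%, background 4.1%). Of the 956 genes, 36 had a Control mean and 21 an M-Δx3,4 mean under 20 raw counts, so these passed the minimum through the other group. They include 14 of the 24 members past the threshold, namely Ccdc40, Wdr34, Apoc1, Polr2i, F2, Fabp1 and the 8 Mup genes. All 956 passed the filter of the test.

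**Figure D2:**
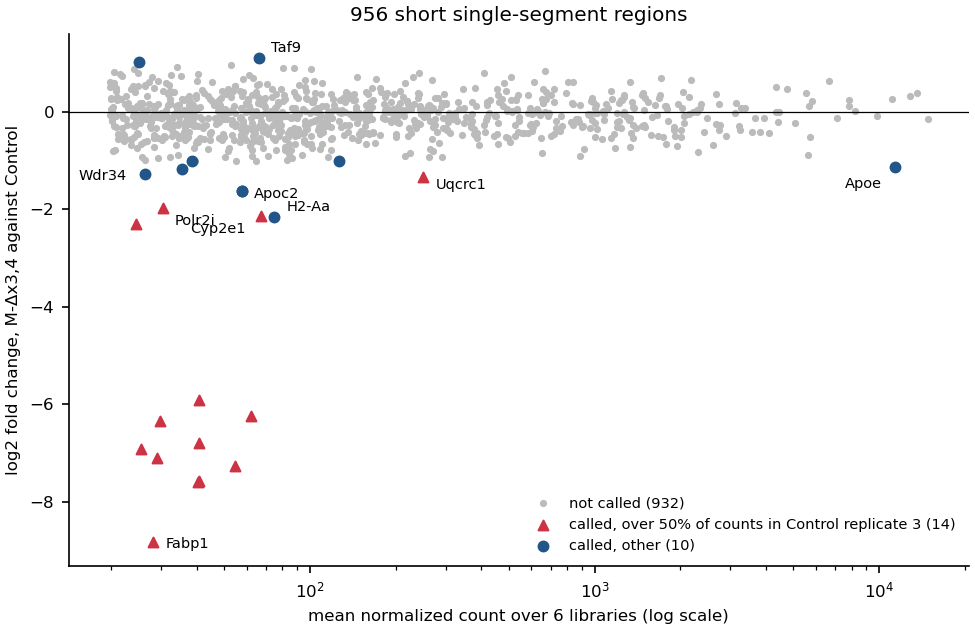
Log2 fold change of M-Δx3,4 against Control over the mean normalized count (log axis) for the 956 members. Blue points and red triangles are the 24 members that met the threshold, and the 14 red triangles had more than 50% of their normalized counts in Control replicate 3.

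The count of lower members rested on 1 library. All 22 had their highest value in Control replicate 3, and in 14 of them that library held more than 50% of the normalized counts. No member had such a share in any other library. Of the 14, 8 were major urinary protein genes, which are known for expression in the liver (Mup2, Mup7, Mup8, Mup9, Mup11, Mup13, Mup14 and Mup19). Fabp1, the liver fatty acid-binding protein, had 168.2 normalized counts in Control replicate 3 and 0 in the other 5 libraries. F2, which encodes prothrombin, had 175.2 there and at most 1.94 elsewhere. The Mup members summed to 1712 raw counts in Control replicate 3 and to 0, 4, 11, 0 and 6 in the other libraries, and their near-identical sequences make the split between them uncertain. Albumin (Alb), no member and looked up after these values were seen, had 228 raw counts in Control replicate 3 and at most 2 elsewhere. Serpina1c and Ttr, looked up with it, had 16 and 11 there and 0 elsewhere. Trf, also looked up, was not confined to that library, with 376 raw counts there and 133 to 304 elsewhere. The 8 Mup genes, Fabp1 and F2 have no fold change between groups that replicates bear out. In them Control replicates 1 and 2 were as low as the M-Δx3,4 libraries. The other 4 were Cyp2e1 (293.5 in Control replicate 3, 15.3 to 32.9 elsewhere), Apoc1 (105.6 against 4.86 to 11.2), Polr2i (106.7 against 7.64 to 20.9) and Uqcrc1 (768.0 against 115.6 to 172.7). Of these 4, only Polr2i had groups that did not overlap. What brought these RNAs into that library was not tested.

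**Figure D3:**
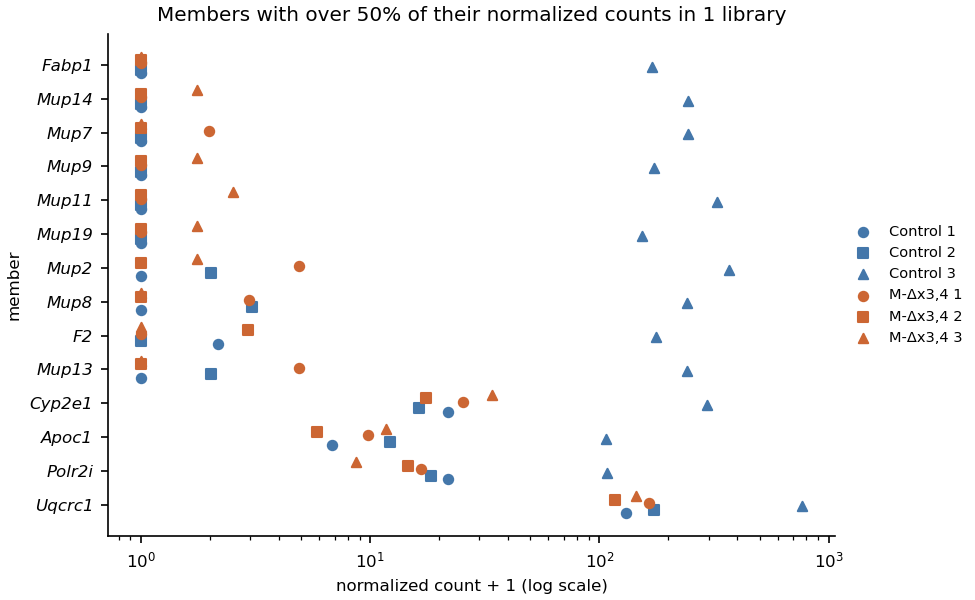
Normalized count + 1 (log axis) in each library for the 14 members with over 50% of their counts in 1 library, blue for Control and orange for M-Δx3,4, with a marker shape per replicate. Control replicate 3 (blue triangles) lies to the right of every other library in all 14, and the 10 upper genes are at or near 0 elsewhere.

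Without Control replicate 3, 5 members were lower and 3 higher by the same threshold, where 1.2% of all transcripts fitted were lower and 1.17% higher. Of the 22, 4 remained, namely H2-Aa, Apoc2, Gm44805 and Wdr34. That fit held 946 members. F2, Fabp1 and the 8 Mup genes fell under its filter and could not remain. Ccdc40 remained among the higher, and Gnl2 (lower), Epb41 and Tmem203 (higher) were added. Leaving out Control replicate 1 instead gave 62 lower and 25 higher, against 4.2% and 6.13% of all transcripts.

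H2-Aa, the alpha chain of an MHC class II molecule that presents peptides to CD4+ T cells, had 87.2, 128.7 and 152.0 normalized counts in Control and 32.3, 20.4 and 29.0 in M-Δx3,4 cells. The groups were far apart. The means were 122.6 ± 32.8 and 27.2 ± 6.15 (SD, n = 3), -2.16 as log2 fold change (standard error 0.40, unadjusted p = 7.65e-05 in edgeR's quasi-likelihood test). Its region (chr17:34282967-34283215, minus strand) follows the end of a noncoding model of the gene and held 57.8% of the count of the most counted H2-Aa transcript. With each library left out in turn the value stayed between -2.36 and -1.97. The other members of antigen presentation had overlapping groups, H2-T23 with 443.2 to 899.1 in Control and 375.8 to 774.7 in M-Δx3,4 cells, Tap2 with 226.8 to 388.7 and 226.9 to 323.4, and H2-Ke6 with 11.6 to 22.5 and 17.6 to 28.4. The summed B cell markers, given above with Igkc the largest, were also lower in every M-Δx3,4 library. So was Ighm, though Cd79b was not. The part of these markers in the H2-Aa difference was not tested. In a culture, fewer cells of a type and less RNA per cell cannot be told apart.

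All 3 apolipoprotein members were lower by the threshold, and all 3 were highest in Control replicate 3, the library with the liver-type RNAs. Apoa1 and Apoa2, which are no members and are known from the liver, had 35 and 37 raw counts in that library and at most 1 elsewhere, and the part of such RNA in the apolipoprotein values was not tested. Apoe, an apolipoprotein of liver and macrophages that carries cholesterol to its receptors, had 8317, 12740 and 25640 normalized counts in Control and 5455, 7880 and 7920 in M-Δx3,4 cells. The highest M-Δx3,4 libraries came close to the lowest Control library. The log2 fold change was -1.14 (standard error 0.37) and -0.56 without Control replicate 3, no longer past the threshold. Apoc2, the activator of lipoprotein lipase, had 59.3, 67.4 and 134.6 against 23.5, 32.0 and 28.3, groups that were well apart. Its log2 fold change was -1.64 (standard error 0.43) and -1.17 without Control replicate 3. Gm44805 had the same counts as Apoc2 in every library because its region covers nearly the same bases, so the pair counts as 1 observation. Apoc1 had 5.81, 11.2 and 105.6 against 8.80, 4.86 and 10.7, and its log2 fold change of -2.30 came to -0.06 without Control replicate 3.

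Wdr34, a dynein-2 intermediate chain used in cilia, had 24.4, 41.9 and 45.2 normalized counts in Control and 20.5, 15.5 and 9.94 in M-Δx3,4 cells, which gave -1.28 on the log2 scale (standard error 0.47). Its region shares bases with Sptan1 on the opposite strand. Hcst, the DAP10 signalling adaptor, had 66.2, 178.8 and 263.4 against 108.6, 85.4 and 57.3, so the groups overlapped. Its region shares bases with its neighbour Tyrobp (DAP12) on the opposite strand, and Tyrobp itself had 1224 to 2080 in Control and 1268 to 1418 in M-Δx3,4 cells. Cyc1, cytochrome c1 of respiratory complex III, had 20.9, 39.8 and 87.0 against 28.4, 13.6 and 22.9, and Abhd16a, a lipid hydrolase, 30.2, 38.8 and 84.7 against 30.3, 22.3 and 23.7. For Hcst, Cyc1 and Abhd16a the log2 fold changes of -1.02, -1.18 and -1.01 came to -0.54, -0.48 and -0.43 without Control replicate 3.

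Of the higher pair, Taf9, a subunit of the general transcription factor TFIID, had 76.7, 20.4 and 29.0 normalized counts in Control and 81.2, 80.6 and 108.5 in M-Δx3,4 cells. Control replicate 1 nearly reached the M-Δx3,4 libraries. Its log2 fold change was 1.10 (standard error 0.47), with 0.77 to 1.87 on leaving out each library, and only without Control replicate 1 did it stay past the threshold. Its region shares bases with Ak6 on the same strand. Ccdc40, a protein of motile cilia, was counted low, with 18.6, 11.2 and 19.7 against 34.2, 25.2 and 41.3 and a log2 fold change of 1.03 (standard error 0.45). On leaving out each library this ran from 0.81 to 1.19 and stayed past the threshold in 3 of the 6 fits, not without Control replicate 2 or M-Δx3,4 replicates 1 or 3.

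A further set had groups that did not overlap and smaller differences. Cd63, a lysosomal and exosomal tetraspanin, had 2141, 3365 and 3325 normalized counts in Control and 1527, 2095 and 1363 in M-Δx3,4 cells (log2 fold change -0.83, standard error 0.31). Tubb4b, a beta-tubulin, had 2361, 2345 and 2562 against 1321, 1491 and 1627 (log2 fold change -0.71), with both groups tight. Ifitm3, an interferon-induced restriction factor of viral entry, had 1230, 1722 and 2016 against 967.4, 1014 and 1016 (log2 fold change -0.73). Rpl28, Ergic3 and Mvp were lower by 0.85, 0.81 and 0.90 on the log2 scale. In the other direction, Serpinb6a, an intracellular protease inhibitor, had 262.7, 359.6 and 275.0 against 473.4, 639.9 and 437.9 (log2 fold change 0.79). Ndufa4, a cytochrome c oxidase-associated subunit, had 86.0, 75.6 and 52.2 against 114.4, 140.8 and 137.6 (log2 fold change 0.88), and Rpl24, Chchd1, Rbm3 and Gng10 were higher by 0.80, 0.90, 0.67 and 0.72. These genes were selected for groups that do not overlap, so the lack of overlap is a description.

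**Figure D4:**
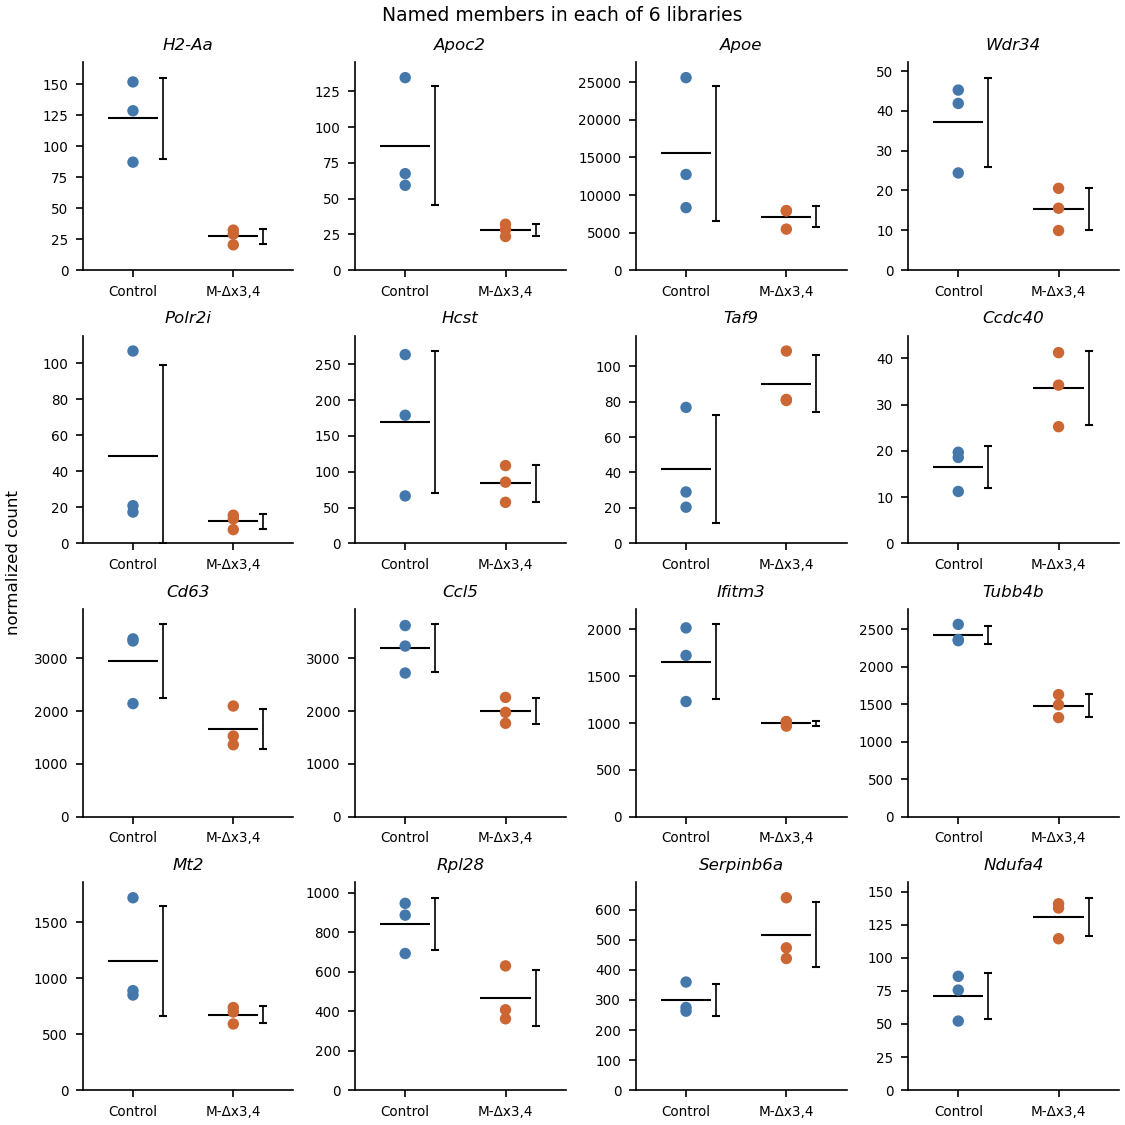
Normalized counts of 16 named members in the 3 Control (blue) and 3 M-Δx3,4 (orange) libraries, with the group mean (line) and SD (bar beside it, stopped at 0 where it would pass below). Hcst is the 1 panel whose groups overlap, and in Polr2i the Control mean rests on 1 library.

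Of the 956 members, 265 fell into 17 of the gene lists. The cytosolic ribosomal proteins gave 72 members of 84 such genes with a protein-coding transcript at the same mean. The other large lists gave 56 of 82 oxidative phosphorylation genes, 24 of 44 proteasome genes, 18 of 54 mitochondrial ribosomal proteins, 15 of 52 translation factors, 9 of 32 spliceosome genes, 6 of 20 RNA polymerase subunits and 5 of 25 import genes. None of the 72 met the threshold, 47 were above and 25 below 0, and the median log2 fold change was 0.12. Rpl28 had an unadjusted p under 0.05 for a lower value, while Rpl24 and Rpl37 had one for a higher value (Rpl37 0.71, groups overlapping). Rps27a, the ribosomal protein fused to ubiquitin, had 7548, 5318 and 2776 in Control and 6688, 9453 and 8074 in M-Δx3,4 cells. The 18 mitochondrial ribosomal proteins had a median of -0.24, with Mrpl33 at 255.2 to 472.0 in Control and 354.1 to 437.0 in M-Δx3,4 cells, and none met the threshold.

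Oxidative phosphorylation gave 56 members, with 2 lower by the threshold (Uqcrc1 and Cyc1, both resting on Control replicate 3), none higher, and a median of 0.00. Atp5g3, of the ATP synthase rotor ring, had 3817 to 5761 in Control and 3172 to 4678 in M-Δx3,4 cells, and Cox6b1, of cytochrome c oxidase, 1132 to 1320 and 1095 to 1352. The 5 members of mitochondrial import and assembly had a median of -0.02 and included Chchd1. In the proteasome list none of 24 met the threshold (median -0.02), and its assembly factor Pomp had 5847, 5425 and 2092 in Control and 2779, 6029 and 4590 in M-Δx3,4 cells. Of 6 RNA polymerase subunits only Polr2i met it, with Polr2c at 299.9 to 372.4 and 231.1 to 321.8. The 9 Sm, LSm and spliceosome members (Snrpa1 the most counted) and the 15 translation factors (Eef1b2 the most counted) had none, with medians of -0.25 and 0.10.

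Among genes of macrophage function, the 8 receptors and adaptors had none past the threshold and a median of -0.31. The 3 chains of C1q, the starter of the classical complement pathway, were each lower on average with overlapping groups. C1qa had 989.1, 2724 and 3037 in Control and 1547, 2022 and 1211 in M-Δx3,4 cells, C1qb 1266, 2573 and 2041 against 1435, 1482 and 1218, and C1qc 1754, 2422 and 2909 against 1791, 1653 and 1538. Aif1, an actin-binding macrophage protein, had 1904, 2313 and 882.9 against 1700, 4114 and 2186. The 10 cathepsin and lysosome members had a median of -0.36, and Cd63 was the 1 with an unadjusted p under 0.05. Hexa, a lysosomal hexosaminidase subunit, had 2937, 3758 and 7503 against 4033, 3545 and 2909, and Ctss, cathepsin S, 1705 to 2844 against 2350 to 2488.

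Of 6 chemokines and cytokines none met the threshold (median -0.27). Ccl5, which attracts T cells and monocytes, had 3232, 2721 and 3620 normalized counts in Control and 1977, 1770 and 2260 in M-Δx3,4 cells, groups that did not overlap, which gave -0.67 as log2 fold change (standard error 0.29, unadjusted p = 0.0337 in edgeR's quasi-likelihood test). Its value stayed between -0.78 and -0.56 with each library left out. Mif had 66.2, 101.1 and 198.4 against 71.4, 78.7 and 48.1, and Tgfb1 22.1, 78.7 and 186.8 against 85.1, 90.3 and 39.0. The 7 interferon-stimulated members had a median of -0.14, and Irf7, the regulator of type I interferon genes, had 1456, 1988 and 2102 against 1376, 1202 and 1379, also without overlap. Of 10 iron, redox and metallothionein members, Mt2 had 889.1, 850.1 and 1719 against 698.4, 591.4 and 738.2, a log2 fold change of -0.77 that was -0.35 without Control replicate 3, and Ftl1 had 3844, 5197 and 11200 against 5097, 4637 and 4344. That list's median was -0.33, and that of the 11 actin and calcium-binding members was -0.03. Both glycolysis members, Aldoa and Gapdh, overlapped between groups, and no member matched the histone list.

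**Figure D5:**
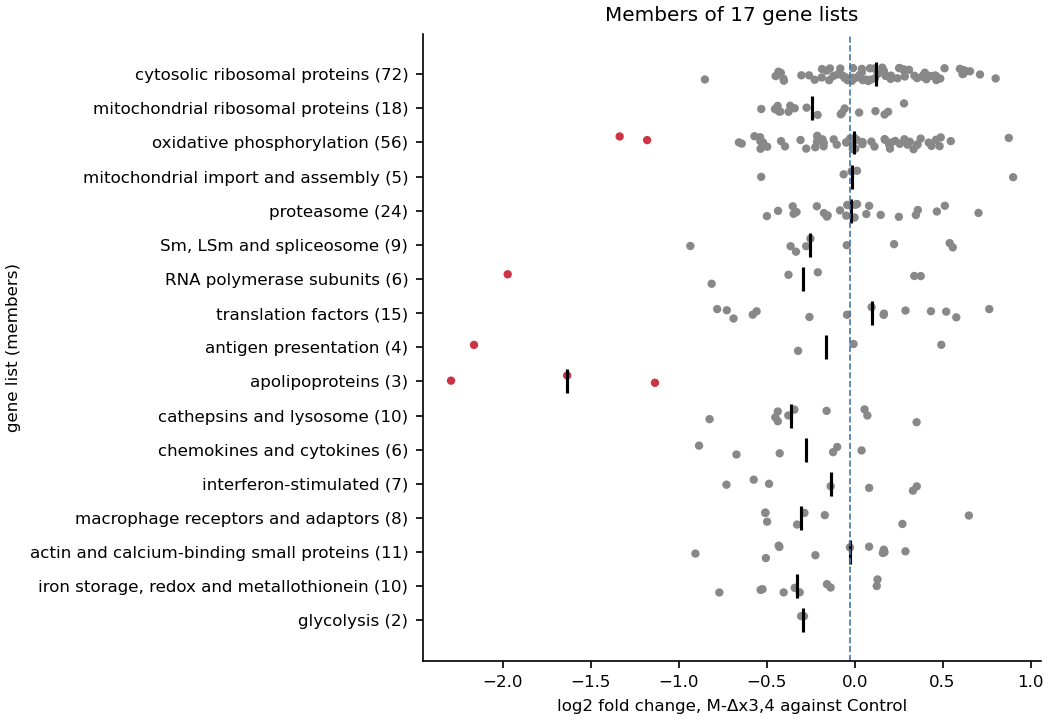
Log2 fold change of M-Δx3,4 against Control of each member in 17 gene lists (points, red where the threshold was met), with the median of the list (black bar) and of all transcripts tested (dashed line, -0.03). The 7 red points are Uqcrc1, Cyc1, Polr2i, H2-Aa and the 3 apolipoproteins, all to the left.

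Shared and partial regions bear on these values. Of the 956 members, 675 were the most counted transcript of their gene and 60 held under 50% of it. A region shared bases with that of another gene in 216 members, in 60 on the same strand and in 167 on the opposite one. Among the 740 members with no shared base, 16 were lower (2.16%) and 1 higher (0.135%) by the threshold. Of all transcripts tested 2.05% were lower and 1.25% higher, so the lower share was close to that background. The limits of the selection cut through similar genes. Slc50a1 and Swi5 (500 bases) and Hspbp1 (499) were just inside the length limit and Arrdc1, Dync1h1 and Ifi211 (503 each) just outside. Bop1, Mecr and Rbms2 stood exactly at the minimum mean of 20 raw counts, and BC147527, Eif4a3l1 and Mup16, at 19.8, were left out.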

How the data were processed

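RNA from 6 BMDM cultures was sequenced by QuantSeq 3′-end RNA-seq. The authors mapped the reads to mm10 with TopHat2 2.1.1 and Bowtie2 and deposited raw counts per 3′ UTR region, with no normalization. A second deposited table, of the authors' own comparison, was not used. Where a transcript had several regions their counts were added (142567 transcripts). Members and gene lists were chosen with earlier results of these data known.

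Counts were divided by relative log expression factors computed in edgeR 4.0.16 (normalized counts), and a transcript was tested if any library exceeded the median normalized count of 4.89 (32475 transcripts). The groups were tested with the quasi-likelihood F test of edgeR, and p-values were adjusted by Benjamini-Hochberg over all of them. Library totals ran from 5852374 to 9008878. Named genes are all members past the threshold, 6 further per direction whose libraries do not overlap, the 10 most counted, list members by level or an unadjusted p under 0.05, the extremes of spread, of ATTTA number and of length, and genes at the limits. Gnl2, Epb41, Tmem203, Alb, Apoa1, Apoa2, Serpina1c, Ttr, Trf, Bcl2a1d, Ch25h, Flna, Ap2s1 and Gm20547 were named after their values were seen. Alternatives included DESeq2 1.42.0, limma 3.58.1 and leaving out each library. Of 9 pairs of nearly coincident regions on opposite strands, none had counts within 10% of each other. In only 1 of the 9 did the lower region hold under 1% of the higher count. These pairs do not settle how cleanly the strands were separated. One marker gene of the lists is not reported here.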

Additional observations from a re-analysis of the deposited data

How the results depend on the processing

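The 22 lower and 2 higher members became 11 and 1 with DESeq2's Wald test and 5 and 4 with limma-voom. They became 39 and 9 without a minimum fold change and 8 and 1 at a mean of at least 50 raw counts. The share of all transcripts past both cutoffs is given only for the main fit and without Control replicate 1 or 3. For the other fits, changes in these counts cannot be set against a background. With edgeR's filterByExpr 12 were lower of 946 members fitted, and DESeq2's test gave a value for 945. F2, Fabp1 and the 8 Mup genes had no value in either, nor had Cyp2e1 with DESeq2. These calls were left untested there. At an unadjusted p under 0.01, 0 were higher by edgeR's quasi-likelihood test, beside 9 members higher at an unadjusted p under 0.05. The higher count was 1 with 1 transcript per gene, with no filter and with only regions that share no base, and 0 among the members with an annotated UTR, of which 13 were lower (chosen after seeing the data). Leaving out each library gave 5 to 62 lower and 0 to 25 higher, lowest without Control replicate 3 for the lower count and highest without Control replicate 1 for both. Cyp2e1 turned direction without Control replicate 3 (-2.66 to 0.46 over the libraries left out). The planned removal of a GC trend over the counted regions was not run, as no genome sequence was used here, and the GC of the transcripts was used instead, chosen after seeing the data. It gave 18 lower and 3 higher. Deviations of same-numbered libraries had correlations of -0.171, 0.519 and -0.322 for replicates 1, 2 and 3. The highest value, 0.529, belonged to differently numbered libraries, Control replicate 1 and M-Δx3,4 replicate 3. With 3 libraries per group these correlations cannot decide whether the numbers pair the samples. With a replicate block 15 were lower and 3 higher, and with block and GC trend 16 and 4. The median of the members lay at -0.20 when Control replicate 1 was left out and at -0.01 when replicate 3 was, the extremes of all alternatives, each value less than 0.143 (the SD of the library medians) from the -0.09 of all libraries, and the share of counts between -2.64 and 0.21 percentage points (M-Δx3,4 minus Control) with each library left out. Of 369 values of the 39 members whose log2 fold change was computed, under alternatives that kept every library, 328 kept direction and side of the threshold and 41 lost the threshold in the same direction. Counts under about 20 per library, as in Ccdc40 and Wdr34, limit those values.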
